A study of Mus musculus with 2 samples.

Results

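C1q-positive cells of the femoral marrow and nail surface were rare, 114 of 15842 kept cells. Members were chosen by their C1q counts: a cell entered when it held at least 3 unique molecular identifiers (UMIs, 1 per captured RNA molecule) of C1qa, C1qb and C1qc together and at most 3 UMIs of the B cell receptor genes Cd79a and Cd79b. The kept cells are those with 200 or more genes detected and no more than 15% of UMIs from mitochondrial genes. The cells came from mice with an osteoporotic fracture whose bone was held by an intramedullary nail, a metal rod along the inside of the shaft. There were 2 droplet libraries, each of marrow together with cells adhering to the implant. The Mg group carried a magnesium nail, and the Mg-TAGelMA group a Mg-TAGelMA nail. GelMA is gelatin methacryloyl, which forms a hydrogel, and what TA stands for is not given in the labels. Strain, age, time after surgery, the number of mice behind a library and the proportion of marrow to adherent cells are not given in the sources used here. With 1 library per group there was no replicate and no test of the nails. Intervals are exact, at 95%, and cover counting error alone, since cells of 1 library are not replicates.

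C1q is the recognition molecule of the classical complement pathway, built from A, B and C chains that the genes C1qa, C1qb and C1qc encode. Tissue macrophages are a main source of it. In marrow, resident macrophages sit at the centre of erythroblast islands, hold developing red cells with the adhesion molecule VCAM1, engulf their expelled nuclei and return iron from haem. Engulfment of dying cells uses the receptor kinases MERTK and AXL, haem is opened by the oxygenase encoded by Hmox1, and iron leaves through ferroportin, encoded by Slc40a1.

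The Mg library held 36 members among 8319 kept cells, 0.433% (0.303% to 0.599%). The Mg-TAGelMA library held 78 among 7523, 1.04% (0.820% to 1.29%), a share 2.40 times as high (1.59 to 3.66). With depth equalised, too few members were left to decide whether the shares differed, and the interval included both 1 and 2.40. With every cell thinned to 2000 UMIs and shallower cells left out, 15 of 6891 and 20 of 7178 cells passed the rule, a ratio of 1.28 (0.623 to 2.69). That step kept only 18 Mg and 38 Mg-TAGelMA members, because members were shallow, with medians of 2026 and 1829.5 UMIs against 3844 and 6977 for all kept cells. The libraries shared 21 barcodes, and 0 of them belonged to a member.

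Of the kept cells, 8101 Mg and 7041 Mg-TAGelMA cells had 0 C1q UMIs, 162 and 372 had 1, and 16 and 27 had 2. Of the cells with 2, 14 and 22 met the Cd79 limit and would have been members at a minimum of 2, which gives 50 and 100 members. At exactly 3 UMIs, the lowest value that counts as a member, stood 0 Mg and 17 Mg-TAGelMA members, and the Mg members began at 4. The median member held 7.5 C1q UMIs (Mg) or 9 (Mg-TAGelMA), and the maxima were 202 and 296. Together they held 68.6% and 77.7% of the C1q UMIs of all kept cells. B cells, taken as cells with over 3 Cd79a and Cd79b UMIs, should lack C1q and had at least 1 UMI in 1.97% (1.55% to 2.48%) of Mg cells and 4.88% (4.002% to 5.89%) of Mg-TAGelMA cells. Their median depths were 3704 and 5710 UMIs.

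**Figure D1:**
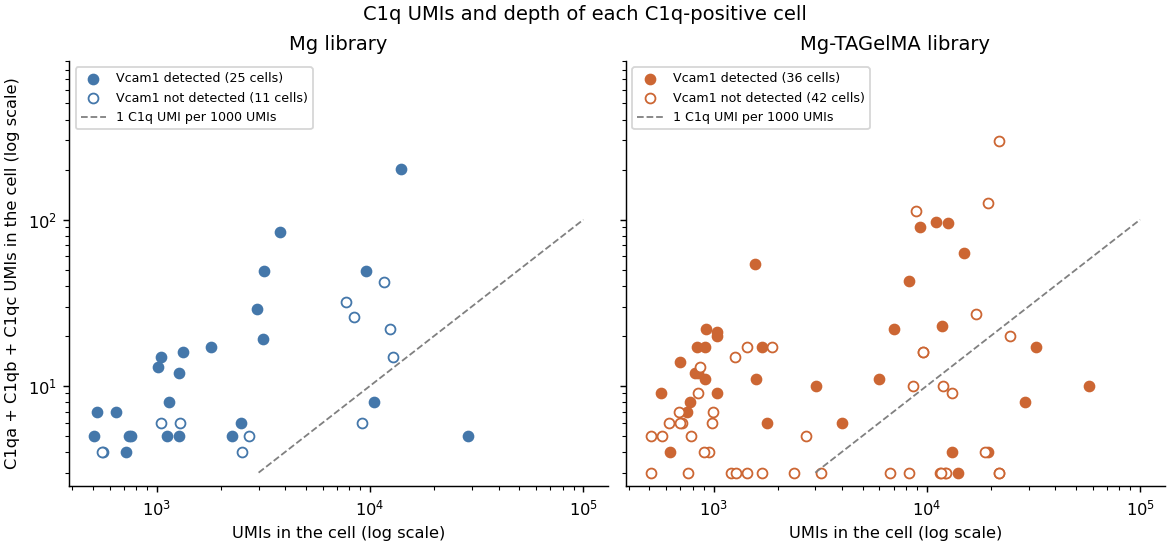
Each point is 1 C1q-positive cell, with its UMIs on the x axis and its C1qa, C1qb and C1qc UMIs on the y axis, both on log scales. Filled points had at least 1 Vcam1 UMI, and the dashed line marks 1 C1q UMI per 1000 UMIs, below which lie 3 Mg cells and 19 Mg-TAGelMA cells.

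Members differed widely in C1q relative to depth. The 33 Mg and 59 Mg-TAGelMA members with at least 1 C1q UMI per 1000 UMIs had medians of 6.62 and 8.43 per 1000, and the other 3 of 36 and 19 of 78 had less than 1. These few cells were deep, with medians of 10466 and 13162 UMIs, and they supplied 29.3% (Mg) and 60.1% (Mg-TAGelMA) of the members' UMIs. Neutrophil granule genes (S100a8, S100a9, Ltf, Camp and Ngp) made up a median of 3.05% of UMIs in the 19 Mg-TAGelMA cells and reached 45.3% in 1 of them. In the 3 Mg cells the median was 0.229% and the maximum 33.9%. Members with at least 1 C1q UMI per 1000 had such RNA too, with medians of 0.465% (Mg) and 2.09% (Mg-TAGelMA) and maxima of 10.5% and 22.4%. Sums over members weigh the few deep cells heavily. Gene differences between the libraries were therefore recomputed for the members with at least 1 C1q UMI per 1000, a boundary set after the values were seen. Among those cells the ratio of shares was 1.98 (1.27 to 3.13). A doublet caller marked 0 Mg members and 2 Mg-TAGelMA members.

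The C chain was the least counted of the chains in both libraries. C1qa (ENSMUSG00000036887) made up 40.3% and 38.3% of the members' C1q UMIs in the Mg and Mg-TAGelMA libraries, C1qb (ENSMUSG00000036905) 35.5% and 36.8%, and C1qc (ENSMUSG00000036896) 24.2% and 24.9%. The genes lie beside each other on the minus strand of chromosome 4 in GRCm38, C1qa at 136895917 to 136898803, C1qc at 136889804 to 136893065 and C1qb at 136880129 to 136886187. All 3 chains were detected in 22 of 36 Mg members and 54 of 78 Mg-TAGelMA members. Because these genes chose the members, their levels are a description only. The 250 bases before the RefSeq start of C1qb (chr4:136886201-136886450) and of C1qc (chr4:136892915-136893164), on GRCm38.p6 and written on the gene's strand, are shown because these neighbours were counted together. Capitals mark GAGGAA, a core of sites of the myeloid factor PU.1, or its reverse complement TTCCTC, and TGCTGA, a core of sites of the MAF family.
C1qb: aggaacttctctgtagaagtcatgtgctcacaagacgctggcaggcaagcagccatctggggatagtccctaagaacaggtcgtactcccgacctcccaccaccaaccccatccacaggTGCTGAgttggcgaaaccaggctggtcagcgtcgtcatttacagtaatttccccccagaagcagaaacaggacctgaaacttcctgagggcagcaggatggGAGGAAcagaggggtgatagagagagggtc
C1qc: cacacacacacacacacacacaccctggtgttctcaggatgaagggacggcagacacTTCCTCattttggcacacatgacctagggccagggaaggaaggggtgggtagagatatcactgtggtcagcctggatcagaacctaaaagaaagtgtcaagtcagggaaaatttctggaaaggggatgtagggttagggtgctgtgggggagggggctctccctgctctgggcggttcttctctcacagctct
Searched on both strands, the PU.1 core stood in both windows and the MAF core in that of C1qb. Among 32851 mouse windows of this length, 23.3% held the PU.1 core and 16.1% the MAF core, so each match is common and describes letters, not binding. The gene limits above are from GENCODE, whose starts differ from those of RefSeq, so part of the C1qc window lies within the GENCODE gene. The motifs do not overlap each other.

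The label of marrow macrophages was set against genes that the rule did not use. In CPM, the summed counts of a group of cells scaled to the same total, a gene was called when its interval lay wholly beyond 2-fold and it reached 50 CPM in the higher group. This was required in both libraries when members were set against all other kept cells. Of 3054 genes tested, 137 were called higher in members (4.49%) and 26 lower (0.851%). A list of 20 macrophage identity genes summed to 6719 CPM in Mg members and 123 CPM in other Mg cells, and to 3240 and 212 CPM in the Mg-TAGelMA library. Each of them was below 50 CPM in the other cells of both libraries and could be tested only through the members, so no count of calls is given for this list. Timd4, Vsig4 and Marco of the list were near 0 in the members too, with 0 and 1, 1 and 0, and 3 and 0 UMIs in the Mg and Mg-TAGelMA members. Over cells, 33 of 36 Mg members had at least 3 identity genes, 91.7% (77.5% to 98.2%), and 54 of 78 Mg-TAGelMA members, 69.2% (57.8% to 79.2%), while 4 Mg-TAGelMA members had 0.

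In summed counts, engulfment receptors and lectins set the members furthest apart from the rest. Fcna, which encodes the lectin ficolin A, stood at 242 CPM in Mg members and 0.831 CPM in the other Mg cells, and at 208 and 0.442 CPM in the Mg-TAGelMA library. Mertk was 428 times as high in Mg members as in other cells (228 to 812) and 260 times in the Mg-TAGelMA library (175 to 392). It was detected in only 10 of 36 Mg members and 8 of 78 Mg-TAGelMA members, and 1 cell held 36% and 44% of its UMIs. Axl was 172 times as high (130 to 227) and 111 times (88.9 to 138). Mrc1, the mannose receptor, was 109 times as high (84.8 to 140) and 149 times (126 to 176). Ms4a7, a membrane gene of tissue macrophages, was at 254 and 145 CPM. The same leading genes included Sdc3, Frmd4b, Aif1 and Pld3, the lipase gene Lpl, the lipid carrier Apoe and the selenium carrier Selenop.

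Iron and lysosome genes followed. Of 14 genes tested in the iron recycling and erythroblast island list, 8 were higher in members of both libraries and 0 lower. Hmox1 was 51.6 times as high in Mg members as in other cells (41.8 to 63.2) and 31.1 times in the Mg-TAGelMA library (28.0 to 34.6), and Slc40a1 14.1 times (11.3 to 17.5) and 9.15 times (7.75 to 10.7). The others were Spic, a transcription factor of iron-recycling macrophages, the ferritin genes Fth1 and Ftl1, the transferrin gene Trf, the biliverdin reductase gene Blvra and Lrp1, a receptor for haem bound to haemopexin. Of 20 lysosome and cathepsin genes tested 12 were higher, among them the proteases Ctsb, Ctsd and Lgmn and the saposin precursor gene Psap. Of 12 efferocytosis and lipid genes tested 8 were higher, and of 9 MHC class II and antigen presentation genes 7. Over all genes tested, 4.49% were higher and 0.851% lower. Genes below 50 CPM in the other cells entered these counts only through the members and could be called only higher. Among them were Hmox1 (12.8 and 23.7 CPM in the other Mg and Mg-TAGelMA cells), Slc40a1 (38.1 and 30.8) and Lgmn (23.3 and 42.7). The list counts are therefore a description and no support for the label. The 26 lower genes were led by B lineage genes such as Ms4a1, Igkc and Vpreb3, and the Cd79 limit of the rule acts on that lineage directly.

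Classical monocytes shared the identity gene Adgre1 with members but seldom had Vcam1. They were taken as C1q-negative cells with Csf1r and at least 3 UMIs of Ccr2 and F13a1, 307 Mg and 647 Mg-TAGelMA cells. At least 3 identity genes were found in 72.6% (67.3% to 77.5%) of the Mg and 87.2% (84.3% to 89.7%) of the Mg-TAGelMA monocytes. The median monocyte had 3 and 4. Csf1r is itself an identity gene, so each monocyte held at least 1 by the rule. Among members 16 of 36 and 33 of 78 had Csf1r, so these shares cannot be set directly against those of members. Nonclassical monocytes, taken by Treml4, Ace and Cd300e and also by Csf1r, so with the same limit, were 30 Mg and 31 Mg-TAGelMA cells. At least 3 identity genes were found in 73.3% (54.1% to 87.7%) and 74.2% (55.4% to 88.1%) of them. Vcam1 was detected in 25 of 36 Mg members, 69.4% (51.9% to 83.7%), in 1.95% of Mg classical monocytes and in 2.87% of Mg B cells. In the Mg-TAGelMA library it was detected in 36 of 78 members, 46.2% (34.8% to 57.8%), in 3.55% of classical monocytes and in 4.69% of B cells. Classical monocytes were deeper than members, with medians of 9039 and 13820 UMIs, so depth favoured detection in them. The F4/80 gene Adgre1, in contrast, was detected in 47.2% and 39.7% of members and in 51.1% and 51.0% of classical monocytes. Its summed level was 266 and 142 CPM in members and 91.1 and 54.5 CPM in the monocytes.

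**Figure D2:**
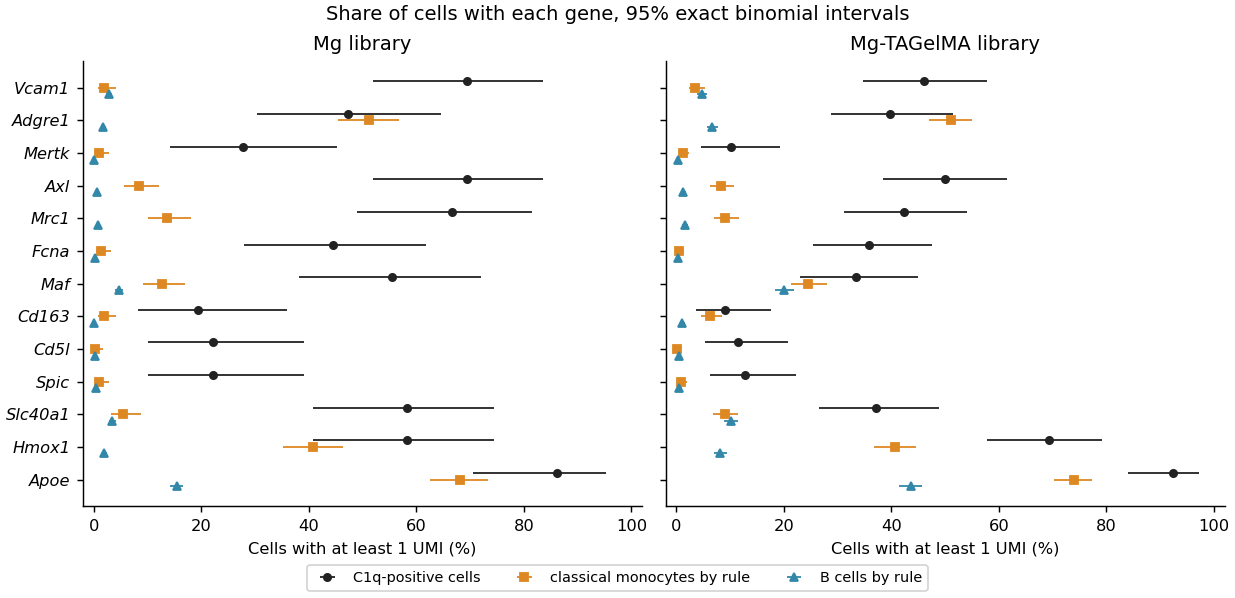
Share of cells with at least 1 UMI of each gene, with exact binomial intervals, for C1q-positive cells, classical monocytes and B cells taken by rule, in each library. Vcam1 stands at 69.4% and 46.2% in C1q-positive cells and below 5% in the others, while Adgre1 is found as often in monocytes.

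Vcam1 divided the members by other genes in both libraries. In the Mg library Slc40a1 was detected in 20 of 25 members with a Vcam1 UMI and in 1 of 11 without, at 874 and 85.4 CPM. In the Mg-TAGelMA library it was detected in 21 of 36 and in 8 of 42, at 502 and 30.04 CPM. Ferroportin message thus lay mostly in the Vcam1-detected cells of each library. Fcna was found in 16 of 25 Vcam1-detected Mg members and in 0 of 11 others, and in 24 of 36 and 4 of 42 Mg-TAGelMA members. Spic was found in 8 of 25 and 0 of 11 Mg members, and in 9 of 36 and 1 of 42 Mg-TAGelMA members. Cd5l, which encodes the secreted macrophage protein AIM, was found in 8 of 25 and 0 of 11, and in 9 of 36 and 0 of 42. Maf, a transcription factor of resident macrophages, stood at 727 and 256 CPM (Mg) and at 315 and 48.8 CPM (Mg-TAGelMA).

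Cells without a Vcam1 UMI were the deeper ones in the Mg library, with a median of 7705 UMIs against 1267. In the Mg-TAGelMA library cells with Vcam1 were the deeper ones, with medians of 1778 without and 2412.5 with Vcam1. The part of depth in the division was not tested. Hmox1 was divided less, at 779 and 498 CPM (Mg) and 879 and 575 CPM (Mg-TAGelMA), and Apoe was at 2654 and 2562 CPM and at 2202 and 2287 CPM. Among cells with at least 1 C1q UMI per 1000, Slc40a1 was still at 1418 against 98.2 CPM in the Mg library and 1252 against 41.1 CPM in the Mg-TAGelMA library. Both libraries thus held Vcam1-detected cells with the island and iron export genes and cells with neither.

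The MHC class II genes ran the other way in summed counts, but over single cells the medians were apart in that direction only in the Mg library. These genes present peptides to helper T cells, and H2-Aa stood at 3570 CPM in Vcam1-detected and 10660 CPM in other Mg members, and at 833 and 3211 CPM in the Mg-TAGelMA library. In the Mg library, H2-Aa, H2-Ab1, H2-Eb1 and Cd74 together took a median of 0.0988% of UMIs in Vcam1-detected members and 4.65% in the others. In the Mg-TAGelMA library those medians were 0.157% and 0.1251%, with values up to 3.65% and 7.88%. At least 1% of UMIs came from these genes in 6 of 25 and 8 of 11 Mg members, and in 4 of 36 and 10 of 42 Mg-TAGelMA members. The difference in the Mg-TAGelMA sums thus came from a minority of cells.

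**Figure D3:**
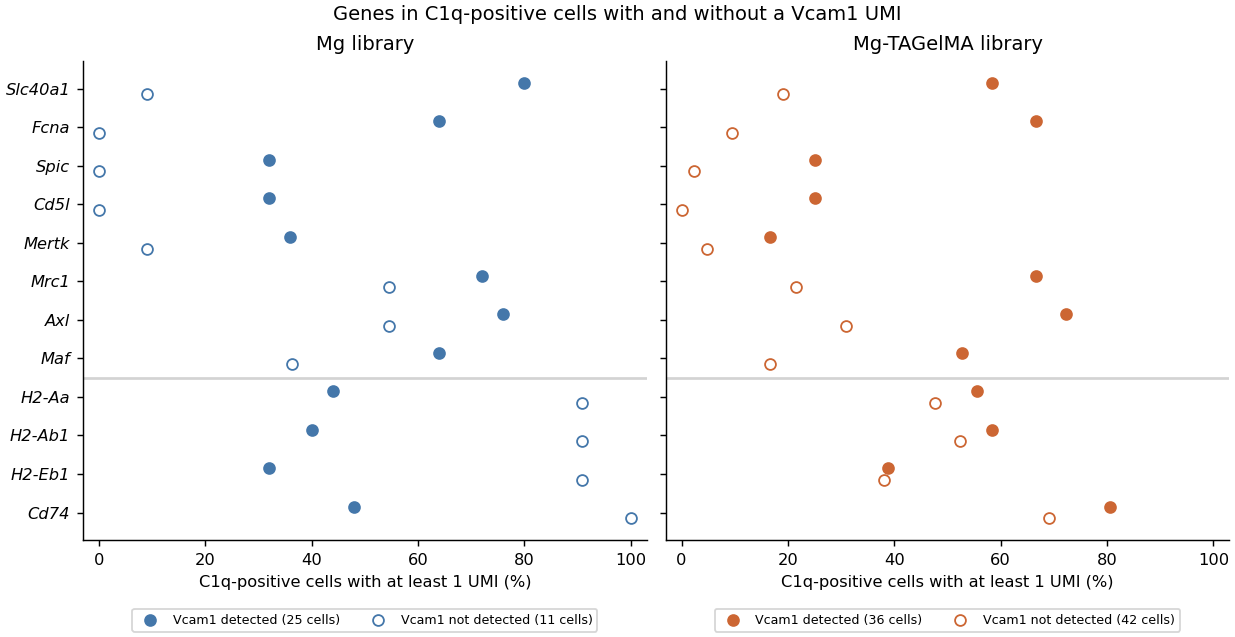
Share of C1q-positive cells with at least 1 UMI of each gene, for cells with a Vcam1 UMI (filled) and without (open), in each library. Genes of iron export and marrow macrophage identity, above the line, lie to the right in Vcam1-detected cells of both libraries, while MHC class II genes, below the line, are separated in the Mg library only.

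Between the libraries, Vcam1 was lower in the Mg-TAGelMA members. Of the identity genes called, it alone kept its call under each alternative that included it. With 10.87 kb of intron it was not part of the run at up to 8 kb of intron. Members of the Mg library held 444 Vcam1 UMIs in 25 cells, and members of the Mg-TAGelMA library 404 in 36 cells, at 2687 and 707 CPM. Vcam1 was 3.80-fold lower in the Mg-TAGelMA library (3.31 to 4.36), and the most that 1 cell held was 22.7% and 20.3% of those UMIs. With at least 1 C1q UMI per 1000 the levels were 3723 and 1610 CPM, 2.31-fold lower, and the call held. The share of cells with Vcam1 differed among members with 3 to 9 C1q UMIs, 14 of 20 in the Mg library and 13 of 42 in the Mg-TAGelMA library, and little among members with 30 or more, 4 of 6 and 6 of 9. Thinned to 2000 UMIs, Vcam1 was left in 7 of 18 and 10 of 38 members, 38.9% (17.3% to 64.3%) and 26.3% (13.4% to 43.1%), which overlap.

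Across all genes, 4031 were tested between the libraries, 255 were called higher in Mg-TAGelMA members (6.33%) and 57 lower (1.41%), with a median log2 ratio of 0.04. With only genes of at most 8 kb of intron and their own total, 1531 were tested, 31 were higher and 25 lower. The Mg matrix came from Cell Ranger 5.0.0 and the Mg-TAGelMA matrix from 7.0.1, and the effects of software version and nail cannot be told apart.

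Of 16 identity genes tested, 3 were lower in the Mg-TAGelMA library (Vcam1, Maf and the oxysterol receptor gene Nr1h3) and 0 higher. The log2 ratio was below 0 for 14 of 17 and above 0 for 3, with a median of -0.88. With at least 1 C1q UMI per 1000 the median was -0.0099. Nr1h3 went from -2.14 to -1.84 there and Maf from -1.46 to -0.69, and neither was called. Mrc1 stood at 521 and 522 CPM, Fcna at 242 and 208, Mertk at 151 and 131, Cd5l at 66.6 and 64.8, and Spic at 133 and 71.8 CPM in the Mg and Mg-TAGelMA members. The colony-stimulating factor receptor gene Csf1r was at 424 and 199.6 CPM. None of these passed the rule. With 0 Cd79 UMIs the log2 ratio of Csf1r turned from -1.09 to 1.16 and that of Adgre1 from -0.91 to 0.08, and with at least 1 C1q UMI per 1000 that of Mertk turned from -0.20 to 0.56. The median member had 7 of the 20 identity genes (Mg) or 5 (Mg-TAGelMA).

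No iron gene passed the rule between the libraries. Of 16 tested, 0 were called in either direction, with a median log2 ratio of -0.16. Over all genes tested 6.33% were called higher and 1.41% lower, so 0 of 16 is near that share. Hmox1 stood at 660 CPM in 21 Mg members and 737 CPM in 54 Mg-TAGelMA members, a ratio of 1.12 (0.903 to 1.39). Slc40a1 stood at 539 and 282 CPM, a ratio of 0.523 (0.402 to 0.686). The ferritin light chain gene Ftl1 was found in all 36 and all 78 members, at 4836 and 4777 CPM. The heavy chain gene Fth1 was at 6101 and 8076 CPM, but at 6154 and 14514 CPM with at least 1 C1q UMI per 1000, where it was called higher.

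MHC class II genes were lower in the Mg-TAGelMA members, but the difference rested on which cells were taken. Of 11 genes tested, 4 were lower and 1, the costimulator Cd86, higher, with a median log2 ratio of -1.12. H2-Aa stood at 6585 CPM in the Mg members and 1942 CPM in the Mg-TAGelMA members, 3.39-fold lower (3.12 to 3.69), and H2-Ab1 at 5326 and 1618 CPM. H2-Eb1 stood at 5351 and 1749 CPM, and Cd74, the invariant chain that guides MHC class II through the cell, at 9697 and 4434 CPM. Among the 23 Mg and 49 Mg-TAGelMA members with 0 Cd79 UMIs none of these 4 calls held, and the list median was 0.19. That limit also changed depth. It left out deep Mg members, such as those of 13940 and 12867 UMIs with 3 and 2 Cd79 UMIs, and kept the deepest, of 28767 UMIs. B cells carry these genes too, and the part of B cell RNA or of depth in the change was not tested. With at least 1 C1q UMI per 1000 the 4 genes were 2.32-, 1.85-, 1.75- and 1.32-fold lower in this order, only H2-Aa was still called, and the list median was -0.32. The direction was also found in classical monocytes, where H2-Aa had a log2 ratio of -2.39 and H2-Ab1 of -2.53. Lysosome genes were lower in median by 0.48, and Psap alone was called, at 4237 and 1625 CPM. Its log2 ratio went from -1.38 to -0.77 with 0 Cd79 UMIs and to -0.80 with at least 1 C1q UMI per 1000, and neither was called.

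**Figure D4:**
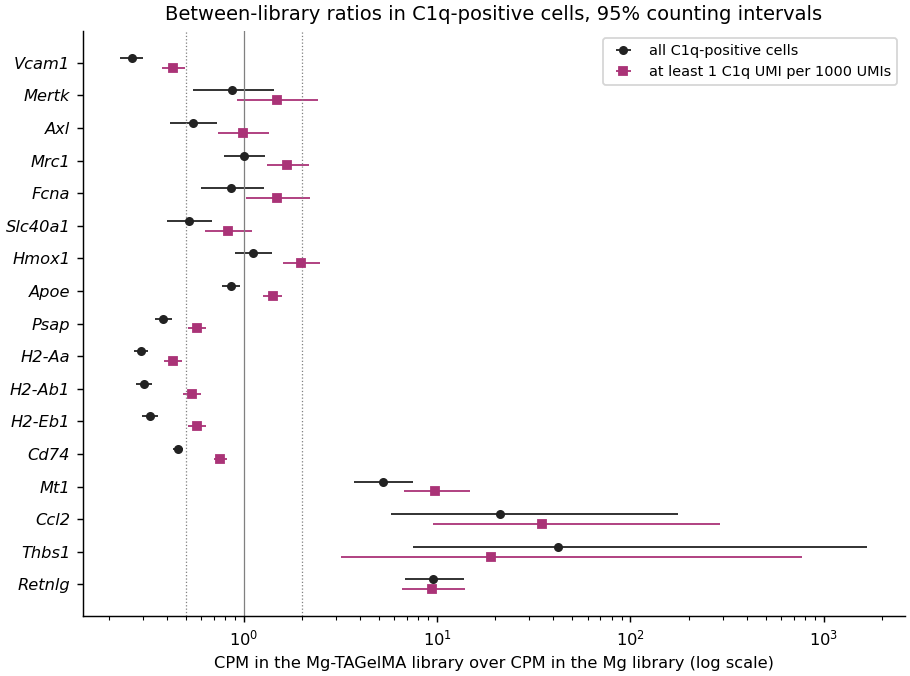
Ratio of CPM in the Mg-TAGelMA library to the Mg library for genes of the C1q-positive cells, with counting intervals, on a log scale, for all members (circles) and for members with at least 1 C1q UMI per 1000 UMIs (squares). Vcam1 and H2-Aa lie below the dotted 2-fold line in both sets, and Mt1, Ccl2, Thbs1 and Retnlg lie above it in both.

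Chemokine ligands, which draw leukocytes to a site, were higher in the Mg-TAGelMA members. Of 13 tested, 7 were higher and 1, Ccl5, lower, with a median log2 ratio of 1.80. Ccl2, the main ligand for monocytes, had 2 UMIs in 2 Mg members and 146 in 16 Mg-TAGelMA members, a ratio of 21.1 (5.74 to 176). Cxcl2, which draws neutrophils, had 3 UMIs in 3 Mg members and 211 in 30 Mg-TAGelMA members, a ratio of 20.3 (6.87 to 99.5). Ccl7 had 0 and 202 UMIs, but 1 cell held 70.3% of them. Its ratio was 19.5 with a floor of 3 counts in place of the 0, and the lower limit of its interval was 15.7. Ccl8 lay in 3 Mg-TAGelMA members, 88.4% of its UMIs in 1 cell, and without each gene's top cell it was no longer called. Ccl3 and Ccl4 lay in 28 and 29 Mg-TAGelMA members. With at least 1 C1q UMI per 1000 the ratios of Ccl2 and Cxcl2 were 34.9 and 40.0. That of Ccl7 was 34.0 with the same floor (lower limit 27.4), and Ccl5 was no longer called, at 1207 and 1022 CPM. The list median was 2.59 in the other kept cells, so these genes were higher there too. Cxcl2 was lower in members than in the other kept cells, at 18.2 against 85.4 CPM (Mg) and 369 against 515 CPM (Mg-TAGelMA). In classical monocytes the ratio of Cxcl2 was 0.998 (0.898 to 1.11), while that of Ccl2 was 2.73 (2.37 to 3.17) and that of Ccl7 4.28 (1.59 to 16.2). Among members with a Vcam1 UMI the list median was 0.21, and Cxcl2 and Ccl8 were no longer called.

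Of 12 tissue repair genes tested, 4 were higher and 1 lower, and of 4 metallothionein and zinc genes 2 were higher and 0 lower. Thbs1, the matrix protein thrombospondin, had 1 UMI in the Mg members and 146 UMIs in 30 Mg-TAGelMA members, a ratio of 42.2 (7.46 to 1680), or 19.0 (3.199 to 769) with at least 1 C1q UMI per 1000. Spp1, which encodes osteopontin, had 0 and 125 UMIs, the latter in 24 cells, 12.1-fold higher with a floor of 3 counts in place of the 0. Cd9 and the urokinase receptor gene Plaur were higher, at ratios of 3.64 and 3.998, and Clec10a, a lectin of alternatively activated macrophages, was 6.17-fold lower. The calls of Plaur and Clec10a were lost with at least 1 C1q UMI per 1000, at 4.19 times as high and 3.75-fold lower, and with 0 Cd79 UMIs, while the ratio of Cd9 rose to 19.5. The metallothionein gene Mt1, which binds zinc and copper, was found in 14 of 36 and 58 of 78 members, at 218 and 1138 CPM, 5.22 times as high (3.73 to 7.53), or 9.76 times with at least 1 C1q UMI per 1000. Mt2 had 1 and 101 UMIs, 66.3% of the latter in 1 cell. Spp1, Mt1 and Mt2 were not called among members with a Vcam1 UMI. Of magnesium transporters 1 of 5 tested was higher, Cnnm2, with 0 and 45 UMIs. Over all genes tested 6.33% were called higher, and 5 genes are too few to set against that share.

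Among the other lists, a single cell held most of 2 called genes. The complement gene Cfb was lower, with 97.1% of its Mg UMIs in 1 cell, and without the cell with the most Cfb in each library its log2 ratio was 1.53 in place of -2.55. The interferon gene Rsad2 was lower, with 91.8% of its Mg UMIs in 1 cell. Elmo1, an adaptor for engulfment, the cytokine gene Il1b, the carbonic anhydrase gene Car2 of the osteoclast list and Mcm5 of the proliferation list were higher. Of these, Elmo1 alone was still called with at least 1 C1q UMI per 1000, and it lay in 37 Mg-TAGelMA members with 16.4% of its UMIs in 1 cell. Among lower genes ranked by ratio, Ear2, a ribonuclease gene of eosinophils and some myeloid cells, stood at 387 CPM in 15 Mg members and 31.5 CPM in 15 Mg-TAGelMA members and held under each alternative. Psme2b, Cd209f, Kcna2, Hist1h4d, Gdf3, Bmi1 and Tmem185b were also lower, from 9 to 29 UMIs in the Mg members. Without each gene's top cell none of them was called, though the log2 ratio stayed at -4.11 for Kcna2, -3.79 for Cd209f and -3.01 for Bmi1 and Tmem185b, and went to -3.20 for Psme2b, -1.37 for Hist1h4d and -0.20 for Gdf3. Some were lower in the other kept cells too, with log2 ratios there of -2.67 for Psme2b, -2.98 for Kcna2 and -2.90 for Hist1h4d. The ratio there was -1.29 for Bmi1, -1.22 for Cd209f, -0.077 for Tmem185b and 0.048 for Gdf3. Among higher genes Mir142hg had 0 and 147 UMIs, in 31 Mg-TAGelMA members, and it was higher in the other kept cells too.

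Some markers of other cell types differed between the libraries in members. Neutrophil markers summed to 68717 CPM in Mg members and 111035 CPM in Mg-TAGelMA members, against 55031 and 145914 CPM in the other kept cells, and 4 of 11 were higher (Elane, Mpo, Prtn3 and Retnlg) and 0 lower. S100a8 stood at 18909 and 39058 CPM. The deepest Mg member held 2912 of the 3034 S100a8 UMIs in Vcam1-detected Mg members, and the other Mg members held 90. The Mg sums of S100a8 and of the list thus rested largely on 1 cell. Without the deepest cell of each library the median log2 ratio of the list was 3.24 in place of 0.99. Elane, a protease of early neutrophil granules, had 11 and 1141 UMIs, 50.9% of the latter in 1 cell. With at least 1 C1q UMI per 1000 the ratio of Elane was 4.61 in place of 30.01, and those of Prtn3 and Mpo were 2.69 and 2.10 in place of 12.8 and 10.1 and not called, while that of Retnlg was 9.39. Among monocyte markers Ly6c2 was higher, at 242 and 728 CPM, and Cx3cr1 lower, at 254 and 77.1 CPM, and both calls were lost with at least 1 C1q UMI per 1000. Haemoglobin genes were lower, with 95.7% of the Hbb-bs UMIs of Mg members in 1 cell. B cell markers summed to 629 and 622 CPM, T and NK markers to 266 and 168 CPM, and plasma cell markers to 206 and 208 CPM. Stromal, bone and endothelial markers summed to 24.2 and 7.005 CPM, dendritic markers to 212 and 238 CPM, platelet markers to 48.4 and 101.6 CPM, and basophil, mast and eosinophil markers to 436 and 119 CPM, of which Ear2 gave 387 and 31.5. The part of these cells in the results above was not tested.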

How the data were processed

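From each 10x 3' v3 library the authors deposited a matrix of unnormalised UMI counts, 58261400 UMIs (Mg) and 79891000 UMIs (Mg-TAGelMA), written by Cell Ranger 5.0.0 and 7.0.1 respectively, per the file headers. STAR and mm10 are named per the submitters' processing notes, and whether intronic reads were counted is not given in the sources used here. The other deposited files list gene symbols and barcodes. Members, gene lists and tests were chosen with earlier results of these data known. Counts of members were summed per library and scaled to CPM (Python 3.11.15, numpy 2.4.6, scipy 1.17.1, pandas 2.3.3). Shares have exact Clopper-Pearson intervals and ratios exact intervals from the binomial of both counts. For ratios, a floor of 3 counts stood in for 0. Lists count genes at 50 CPM, and medians use genes at 10 CPM. Named genes were identity genes, up to 4 called members of each list, the 8 highest and 8 lowest called ratios at up to 8 kb of intron, the 20 genes furthest above other cells at 100 CPM, and the main markers of other cell types. Others, such as Ccl3, Ccl4 and Ftl1, were named after their values were seen. Intron lengths came from GENCODE vM21 for 99.8% of genes. Doublets were called by scrublet in scanpy 1.11.5, 197 and 297 cells. TMM factors (edgeR 4.0.16) and size factors (DESeq2 1.42.0, R 4.3.3) scaled the sums as alternatives. The rule was tested on simulated library sums with counting error alone and no variation between cells. That test cannot show how often the rule calls a gene whose UMIs lie mostly in 1 cell.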

Additional observations from a re-analysis of the deposited data

Results flagged for a closer look

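Cells left out of the members by the Cd79 limit carried C1q. In the Mg library 4 cells with 3 or more C1q UMIs had over 3 Cd79a and Cd79b UMIs, and in the Mg-TAGelMA library 5 did. They were flagged by a fixed cutoff of more than 3 cells, which is not a measured background. These cells were 0.108% (0.0295% to 0.277%) and 0.237% (0.0770% to 0.552%) of the B cells taken by the same limit.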

How the results depend on the processing

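The share of C1q-positive cells stayed higher in the Mg-TAGelMA library under the alternatives run, but thinning to 2000 UMIs gave 1.28 with an interval reaching below 1. Thinning took the share with Vcam1 to 38.9% (Mg) and 26.3% (Mg-TAGelMA), and a minimum of 10 C1q UMIs took the Mg-TAGelMA share to 63.9%. Genes called higher between libraries numbered 31 at up to 8 kb of intron, 137 with 0 Cd79 UMIs, 156 with a Vcam1 UMI, 421 at 1.5-fold and 115 at 3-fold. Genes called lower numbered 87 without Gm42418 and AY036118 in the total, 25 at up to 8 kb of intron, 37 at 100 CPM, 146 at 1.5-fold, 19 at 3-fold, 92 without the deepest cell of each library and 20 without each gene's top cell. With at least 1 C1q UMI per 1000, 240 genes were higher and 46 lower than in other kept cells. This last alternative and both that leave out cells were chosen after seeing the data. List medians moved as follows. The identity median was -0.37 at up to 8 kb of intron and -0.0099 with at least 1 C1q UMI per 1000. The iron median was 0.15, 0.13 and, as a mean over cells, 0.21. The MHC class II median was 0.19 with 0 Cd79 UMIs and -0.32 with at least 1 C1q UMI per 1000. The chemokine median was 0.21 with a Vcam1 UMI and 0.95 as a mean over cells. The neutrophil median was 2.94 at 10 C1q UMIs, 0.0256 with 0 Cd79 UMIs, 0.45 with a Vcam1 UMI and 3.24 without the deepest cells. Among named genes called between the libraries, the log2 ratios that changed sign were those of Cfb (2.495 at 10 C1q UMIs, 2.37 with 0 Cd79 UMIs, 3.04 with at least 1 C1q UMI per 1000, 1.53 without its top cell), Car2 (-0.24, -0.56 and -0.16 under the first 3 of these), Clec10a (0.0180 with a Vcam1 UMI), and, with 0 Cd79 UMIs, Rsad2 (0.44), Mcm5 (-0.66), Cd74 (0.15) and Cx3cr1 (1.03). The cause of these moves was not tested. Of 40 named genes called, 7 kept their call under each alternative that included them. Genes with over 8 kb of intron, such as Vcam1, were not part of the run at up to 8 kb. No paired analysis was possible because each group has 1 library.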

Other observations

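Immediate early and stress genes, which cell isolation can raise, gave no call between the members of the libraries. Of 18 tested, 0 were called in either direction, with a median log2 ratio of -0.0032 in members and 0.67 in the other kept cells. Over all genes tested 6.33% were called higher and 1.41% lower, so 0 of 18 is near that share. Of 17 proliferation genes, 1 was called between libraries, also near that share. Of 16 tested against other kept cells, 0 were higher in members of both libraries, beside 4.49% of all genes. Of 12 Fc receptor and phagocytosis genes, 0 were called between libraries, again near the share over all genes. Of 11 tested against other kept cells, 4 were higher in members of both libraries, among them Fcgr1 and Fcgr4. Fcgr1, an identity gene, was below 50 CPM in the other cells and could be called only higher.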
